A study of Homo sapiens with 7 samples.

Results

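The unfolded protein response and the chaperones of the endoplasmic reticulum (ER) were described through 33 genes, chosen by name as the stress sensors, transcription factors, folding enzymes and degradation factors of the compartment. Of these, 32 had a probe set annotated to 1 gene, and the exception was SYVN1, the ubiquitin ligase of ER-associated degradation, whose probe set carried more than 1 annotated gene. All 32 reached a signal of at least 100 units on at least 1 array, so none was dim throughout, and they were read among 12726 genes tested of 19775 named. Gene expression was measured on 7 oligonucleotide arrays (Human Genome U133 Plus 2.0) hybridized with RNA of primary dermal fibroblasts, taken at passage 10 and grown in 3% O2. The study's methods name 2 such lines from healthy newborns and do not say which line each array came from. The study calls the fibroblasts it compared isogenic. Control cells filled 2 arrays, and 1 array was run for each of 5 conditions: cells overexpressing progerin (the truncated, permanently farnesylated lamin A of Hutchinson-Gilford progeria), progerin with the farnesyltransferase inhibitor (FTI) L-744832, prelamin A (the farnesylated precursor of lamin A), prelamin A with FTI, and prelamin A with ZMPSTE24, the protease that removes the farnesylated end. FTI was given at 10 nM for 48 h. For the array with both prelamin A and FTI the sample title mentions FTI only, and its other labels give both. The study's methods state that progerin and prelamin A were delivered by lentivirus under a CMV promoter, and the labels do not say whether the control cells carried a virus or received the solvent. The labels do not say that the 2 controls were separate cultures, so every p-value below measures the spread between these arrays only.

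Proteins of the secretory pathway fold in the ER with the help of Hsp70 and Hsp90 chaperones, DnaJ co-chaperones, lectin chaperones and disulfide isomerases. When unfolded proteins gather there, the membrane sensors ATF6, IRE1 (gene ERN1) and PERK (gene EIF2AK3) become active. ATF6 is cut to release a transcription factor, and IRE1 splices the XBP1 message so that it encodes one. PERK phosphorylates eIF2, which slows protein synthesis and favours translation of ATF4. In turn ATF4 induces transcription of DDIT3 (CHOP). Dermal fibroblasts export large amounts of procollagen and depend on this machinery, including the collagen-specific chaperone HSP47 (gene SERPINH1). Splicing of XBP1 and cleavage of ATF6 leave the array signal of these genes as a measure of total message only.

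Several of these genes carry known stress elements in their promoters, and the promoters of 4 that figure in the results are shown, each as the 250 bases before the annotated start, 5′ to 3′ on the strand of the gene. Sequences are from RefSeq, build GRCh38.p14. HSPA5 lies at chr9:125241344-125241593 (minus strand), XBP1 at chr22:28800570-28800819 (minus), HSP90B1 at chr12:103930160-103930409 (plus) and HYOU1 at chr11:119057206-119057455 (minus). Capitals mark the ER stress response element (ERSE, CCAAT then 9 bases then CCACG) in the first 3 and, in HYOU1, ERSE-II (ATTGG then 1 base then CCACG) together with the overlapping unfolded protein response element (UPRE, TGACGTGG), each on either strand.
HSPA5: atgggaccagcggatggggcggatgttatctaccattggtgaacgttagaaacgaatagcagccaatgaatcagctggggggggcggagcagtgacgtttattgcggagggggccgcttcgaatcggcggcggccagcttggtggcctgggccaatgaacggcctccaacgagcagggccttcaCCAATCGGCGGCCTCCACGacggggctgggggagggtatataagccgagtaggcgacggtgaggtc
XBP1: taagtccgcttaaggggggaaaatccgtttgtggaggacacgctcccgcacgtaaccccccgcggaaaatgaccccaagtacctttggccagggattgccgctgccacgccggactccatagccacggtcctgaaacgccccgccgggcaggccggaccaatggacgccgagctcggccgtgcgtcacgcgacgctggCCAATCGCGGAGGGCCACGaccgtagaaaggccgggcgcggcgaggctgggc
HSP90B1: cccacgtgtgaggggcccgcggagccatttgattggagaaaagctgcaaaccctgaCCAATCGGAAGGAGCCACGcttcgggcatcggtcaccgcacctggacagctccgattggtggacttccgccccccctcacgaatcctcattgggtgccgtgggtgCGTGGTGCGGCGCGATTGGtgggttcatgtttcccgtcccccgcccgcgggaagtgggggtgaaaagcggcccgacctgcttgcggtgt
HYOU1: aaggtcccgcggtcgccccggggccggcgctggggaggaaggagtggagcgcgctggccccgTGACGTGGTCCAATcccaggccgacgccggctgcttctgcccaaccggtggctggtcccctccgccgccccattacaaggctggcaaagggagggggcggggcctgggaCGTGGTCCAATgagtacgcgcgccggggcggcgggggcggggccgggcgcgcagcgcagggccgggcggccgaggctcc

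Windows from 250 bases before to 50 after the start were read for 32 of the 33 members, all but PDIA3. ERSE occurred in 7 of the 32 (21.9%), against 25 of 27305 genes with a window (0.0916%). Counting the start as 0, it spanned -66 to -48 in HSPA5 and -52 to -34 in XBP1, and HSP90B1 held it at -194 to -176 and, on the other strand, at -89 to -71. The other 4 matches are printed as they read on the strand of the gene, because they show how little beyond the fixed ends the genes share.
PDIA6: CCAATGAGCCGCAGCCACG
CALR: CGTGGTCGACCATCATTGG
CANX: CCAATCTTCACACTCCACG
CRELD2: CGTGGCGAACTCGGATTGG
In CALR and CRELD2 the element stood on the opposite strand. ERSE-II was present in HERPUD1, HYOU1 (at -185 to -175 and -79 to -69) and SDF2L1, which is 9.38% of the members against 0.0696% of all genes. UPRE was found in DNAJC10 and in HYOU1, where it overlapped the first ERSE-II, at shares of 6.25% and 0.927%. A match to the ATF4 composite site (TGATG, 1 base, AA) occurred in PPP1R15B, HERPUD1 and CREB3L2, at 9.38% against 4.46%. ERSE was first defined on promoters of this kind, HSPA5 among them, so its share among the members is background and not a finding.

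**Figure D1:**
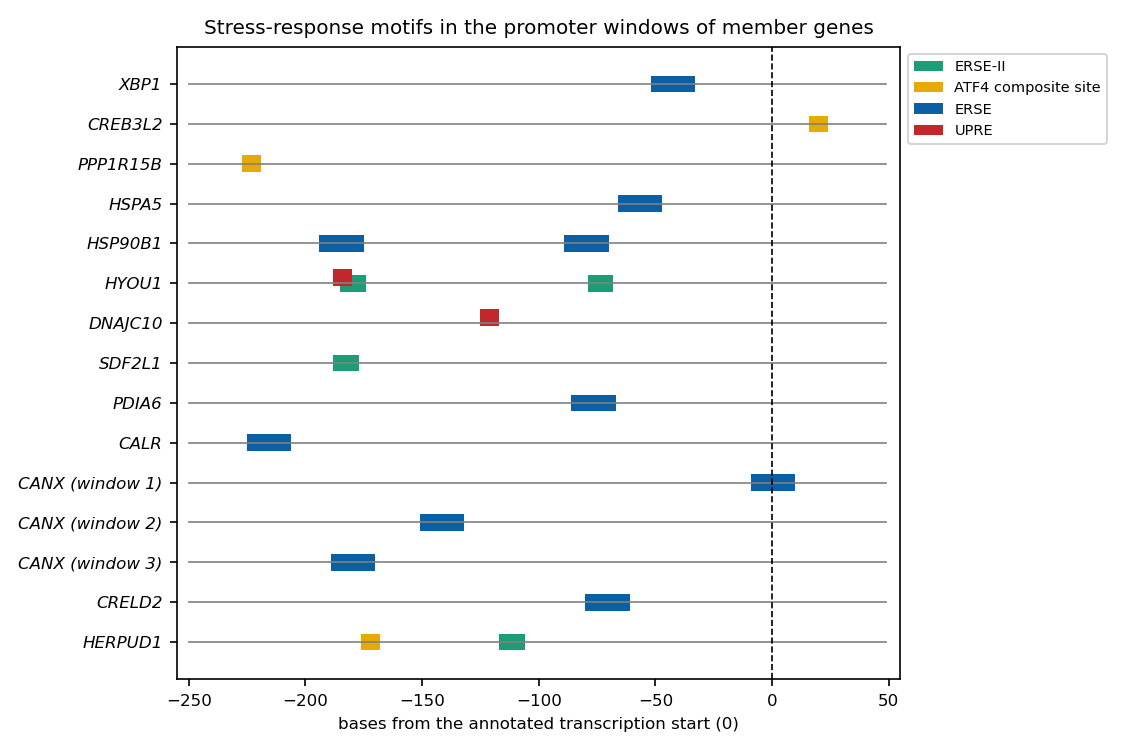
Position of each motif match in the promoter windows of the 13 members that hold one, in bases from the annotated start (0, dashed). The bars are drawn to scale and coloured by motif, the 1 element of CANX falls in 3 overlapping annotated windows, and the ERSE of XBP1 and HSPA5 lies within the last 66 bases before the start.

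Across the 7 arrays most of the genes read lower in every lamin-expressing culture than in either control. On the probe sets reported here, all 5 arrays with progerin or prelamin A, treated or not, lay below both controls for 17 of the 32 genes. This was 53.1%, against 12.3% of all genes tested. On the same probe sets all 5 lay above both controls for 3 genes, ATF6, PPP1R15A and DNAJB9 (9.38%, against 11.9% of all genes). For some of the 17, such as CALR, CREB3L1 and ERO1A, another measured probe set overlapped the controls. The 17 were spread over the roles: the transcription factors XBP1, ATF4, DDIT3 and CREB3L1; the eIF2 phosphatase subunit PPP1R15B and the pseudokinase TRIB3; the large chaperones HSPA5, HSP90B1 and HYOU1; the co-chaperones DNAJB11, DNAJC10 and SDF2L1; the disulfide enzymes PDIA6 and ERO1A; the lectin chaperone CALR; the degradation factor EDEM1; and SERPINH1. Taken against control 1 alone the count was 20 (62.5%, against 24.3% of all genes), and against control 2 alone it was 23 (71.9%, against 26.7%). No test was made over the list, and the 5 arrays share the same 2 controls.

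**Figure D2:**
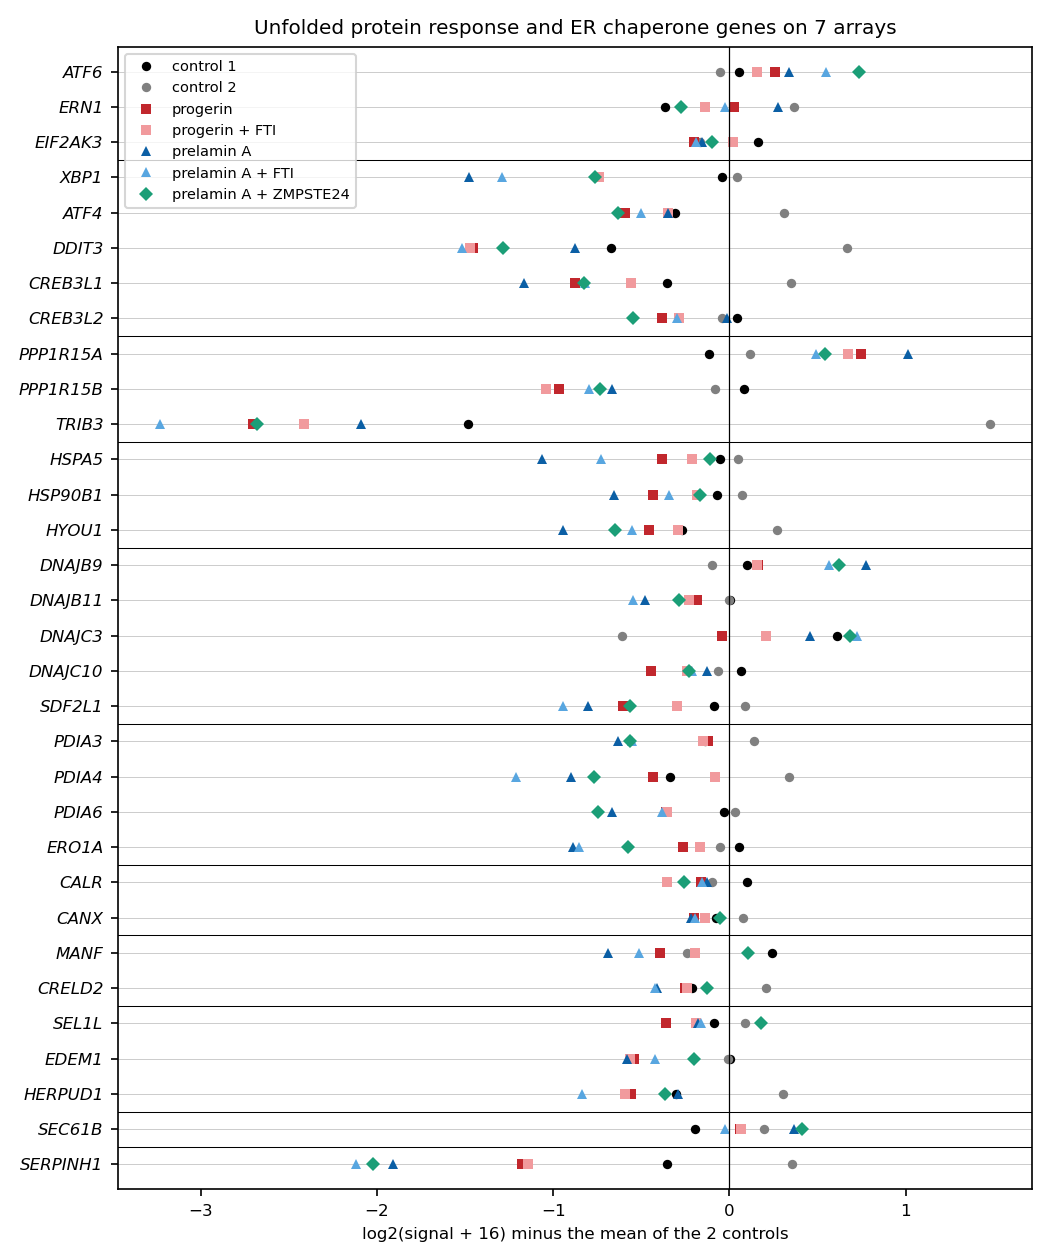
Each row is 1 gene and each point 1 array, placed by log2(signal + 16) minus the mean of the 2 controls; lines divide the genes by role. The coloured points of most rows lie left of both control points, ATF6, PPP1R15A and DNAJB9 lie to the right, and the controls themselves stand far apart for TRIB3, DDIT3 and DNAJC3.

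The median log2 change of the 32 genes was -0.38 in progerin cells against control, where the median of all genes was 0.01, and -0.53 in prelamin A cells, where it was -0.02. By sign alone 27 genes were lower with progerin (84.4%, against 49.3% of all genes) and 26 with prelamin A (81.2%, against 51.5%). A gene was called where its fold change exceeded 2 with an unadjusted p under 0.05 in limma. On that rule 1 member was lower in progerin cells, SERPINH1 (3.12% of the members, against 2.04% of all genes), and 0 were higher (against 3.76%). In prelamin A cells 4 were lower, XBP1, HSPA5, SERPINH1 and CREB3L1 (12.5%, against 4.02% of all genes), and 1 was higher, PPP1R15A (3.12%, against 6.29%). No call of a member held after Benjamini-Hochberg adjustment over all genes: the smallest adjusted p was 0.680 for progerin and 0.222 for prelamin A. With 1 control as the only control no test of either line was possible, and for single genes the change alone is given below.

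Among the transcription factors, XBP1, which drives chaperone and degradation genes once its message is spliced, gave the clearest separation. Its signal was 4025 and 4276 on the controls, 2469 with progerin, 2476 with progerin and FTI, 1477 with prelamin A, 1684 with prelamin A and FTI, and 2438 with prelamin A and ZMPSTE24. The controls lay close together, the progerin pair and the ZMPSTE24 array sat near each other below them, and the prelamin A arrays without ZMPSTE24 were lowest. XBP1 fell by 1.48 on the log2 scale in prelamin A cells (SE 0.32, limma unadjusted p = 0.00753, adjusted p = 0.222), to 35.9% of control. In progerin cells the change was -0.74 (SE 0.32, unadjusted p = 0.0740) and was not called. With either control alone the prelamin A change stayed between -1.52 and -1.44.

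CREB3L1, an ER-resident factor that is released by cleavage and is known to activate collagen genes, read 4088 and 6672 on the controls, 2836 with progerin, 3543 with progerin and FTI, 2324 with prelamin A, 2957 with prelamin A and FTI, and 2943 with ZMPSTE24. The 5 arrays were below both controls, which themselves differed 1.63-fold. In prelamin A cells it fell by 1.16 (SE 0.43, limma unadjusted p = 0.0475, adjusted p = 0.413), and against control 1 alone the change was -0.81, under a 2-fold change. Its second probe set gave -2.05 in prelamin A cells, but its controls were far apart, at 301 and 1221. On that probe set progerin (450) and progerin with FTI (466) lay above control 1, while the 3 prelamin A arrays lay below both controls. The related CREB3L2 spanned 1846 to 2787 over the 7 arrays and was called nowhere.

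ATF4, the factor translated when eIF2 is phosphorylated, had signals of 10858 and 16719 on the controls and 8679 to 10572 on the other 5. DDIT3, the pro-apoptotic factor CHOP downstream of it, read 912 and 2330 on the controls, 522 with progerin, 517 with progerin and FTI, 788 with prelamin A, 499 with prelamin A and FTI, and 590 with ZMPSTE24. Control 2 stood 2.55-fold above control 1, and the other 5 arrays lay below both. The log2 change of DDIT3 was -1.45 with progerin (SE 0.63, limma unadjusted p = 0.0757) and -0.88 with prelamin A, neither called.

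The genes around eIF2 phosphatase moved in opposite directions by sign. PPP1R15A (GADD34), the stress-induced subunit that directs the phosphatase to eIF2, read 775 and 913 on the controls, 1425 with progerin, 1353 with progerin and FTI, 1713 with prelamin A, 1189 with prelamin A and FTI, and 1232 with ZMPSTE24. All 5 arrays lay above both controls and prelamin A cells were highest. It rose by 1.01 in prelamin A cells (SE 0.33, limma unadjusted p = 0.0330, adjusted p = 0.358), and its second probe set gave 0.69 there and 1.04 in progerin cells. On that probe set the arrays overlapped: control 2 read 996, prelamin A with FTI 690 and with ZMPSTE24 861, and progerin (1417) was above prelamin A (1109).

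PPP1R15B, the constitutive counterpart of PPP1R15A, read 2078 and 1851 on the controls, 995 with progerin, 945 with progerin and FTI, 1229 with prelamin A, 1123 with prelamin A and FTI, and 1172 with ZMPSTE24. The 2 progerin arrays were lowest, the prelamin A arrays followed, and none reached either control. The change in progerin cells was -0.97 (SE 0.33, limma unadjusted p = 0.0358, adjusted p = 0.680), just under the 2-fold threshold. In prelamin A cells it was -0.67.

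TRIB3, a pseudokinase induced through ATF4 and DDIT3, varied more than any other member over the 7 arrays, 28.8-fold between lowest and highest. It read 566 and 4523 on the controls, 234 with progerin, 289 with progerin and FTI, 366 with prelamin A, 157 with prelamin A and FTI, and 238 with ZMPSTE24. Control 2 exceeded control 1 by 7.99-fold, so most of the spread lay between the 2 controls. The log2 change of -2.70 in progerin cells carried an SE of 1.25 (limma unadjusted p = 0.0895) and was not called.

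**Figure D3:**
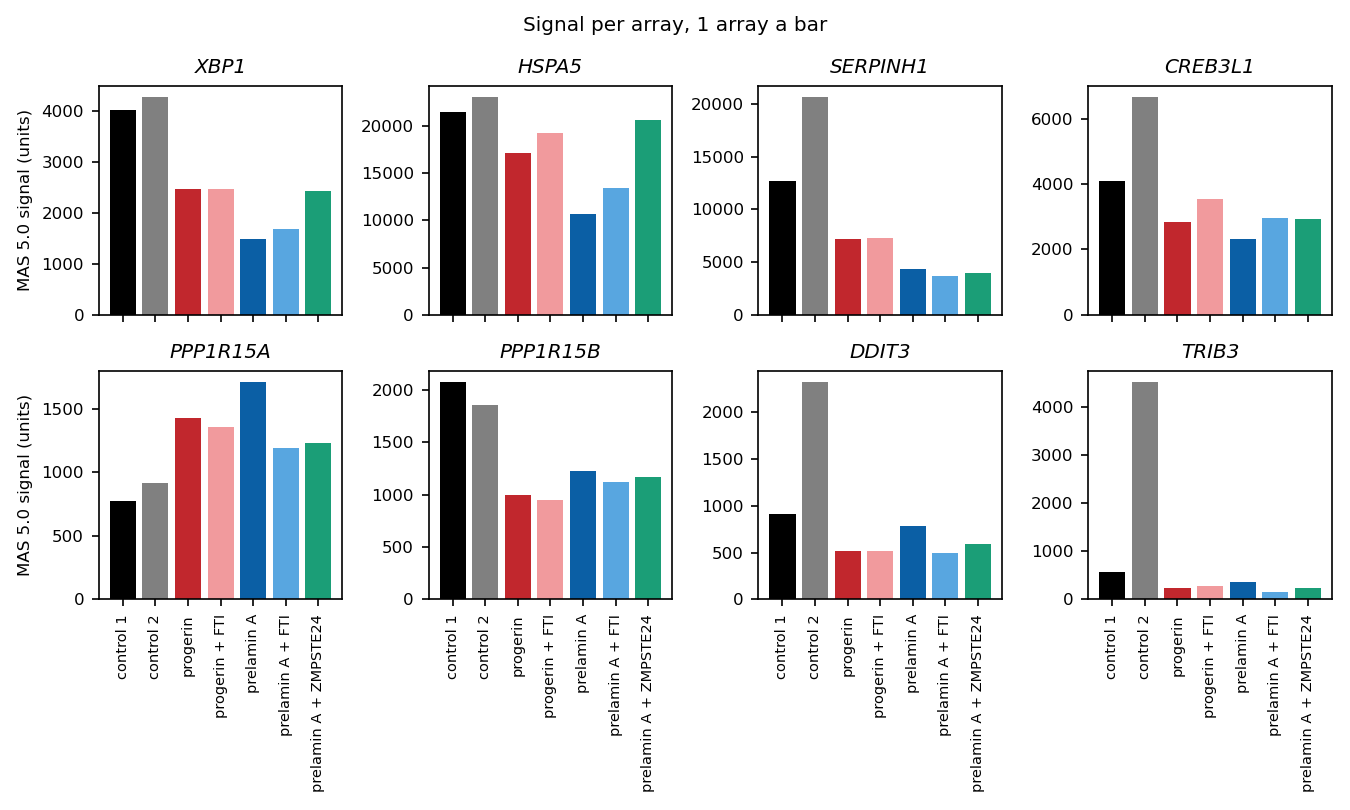
MAS 5.0 signal in units for 8 genes, 1 bar an array, with a separate axis starting at 0 for each gene. XBP1 and HSPA5 show close controls and the lowest bar in prelamin A cells, PPP1R15A and PPP1R15B go in opposite directions, and DDIT3 and TRIB3 are high on control 2 alone.

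The 3 sensors were not called in any comparison. ATF6 read 1170 and 1082 on the controls and 1256 to 1880 on the other arrays, the highest with ZMPSTE24. Of its 3 other probe sets, 2 gave a negative log2 change in progerin cells, so its direction depended on the probe set. ERN1 spanned 258 to 440 and EIF2AK3 1287 to 1660, and in neither did the 5 arrays separate from the controls.

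Of the large chaperones, HSPA5 (BiP), the Hsp70 that binds unfolded chains and holds the sensors inactive, read 21521 and 23112 on the controls, 17118 with progerin, 19257 with progerin and FTI, 10674 with prelamin A, 13456 with prelamin A and FTI, and 20636 with ZMPSTE24. Prelamin A cells were lowest, and the ZMPSTE24 array came close to the lower control without reaching it. HSPA5 fell by 1.06 in prelamin A cells (SE 0.32, limma unadjusted p = 0.0252, adjusted p = 0.328), to 47.9% of control. Its second probe set gave -1.62 in prelamin A cells and -1.09 in progerin cells.

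HSP90B1 (GRP94), the Hsp90 of the ER, read 10328 and 11402 on the controls, 8025 with progerin, 9568 with progerin and FTI, 6887 with prelamin A, 8554 with prelamin A and FTI, and 9653 with ZMPSTE24. It had the same order of prelamin A arrays as HSPA5, at smaller differences. The log2 change was -0.43 with progerin and -0.65 with prelamin A (SE 0.32 for each, limma unadjusted p = 0.244 and 0.106). Its second probe set gave -1.61 and 0.31, so the direction in prelamin A cells rested on the probe set. HYOU1, an Hsp70-like exchange factor for BiP, read 1323 and 1931 on the controls and 824 to 1303 on the others, with prelamin A cells lowest at a change of -0.94 (limma unadjusted p = 0.0650).

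The DnaJ co-chaperones differed among themselves. DNAJB9 (ERdj4), which targets BiP clients for degradation and restrains IRE1, read 2652 and 2310 on the controls, 2767 with progerin, 2765 with progerin and FTI, 4246 with prelamin A, 3673 with prelamin A and FTI, and 3812 with ZMPSTE24. The 3 prelamin A arrays stood apart above the other 4, and the 2 progerin arrays were only just above control 1. Its change in prelamin A cells was 0.77 (SE 0.33, limma unadjusted p = 0.0712), with 0.33 and 0.62 on its other probe sets. On the probe set that gave 0.33, prelamin A (1420) read below progerin with FTI (1478), so the prelamin A arrays did not stand apart there.

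DNAJB11 (ERdj3) was 2972 and 2961 on the controls and 2027 to 2612 on the other arrays, and SDF2L1, its partner, was 568 and 642 against 306 to 489. DNAJC10 (ERdj5), a disulfide reductase, spanned 3791 to 5399, with both controls highest. DNAJC3 (p58IPK), an inhibitor of PERK, read 3458 on control 1 and 1472 on control 2, and the other 5 arrays lay at 2193 to 3738. The controls thus differed more than its change in either line, -0.04 with progerin and 0.46 with prelamin A.

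ERO1A, the oxidase that recharges disulfide isomerases, read 4782 and 4446 on the controls, 3842 with progerin, 4113 with progerin and FTI, 2490 with prelamin A, 2548 with prelamin A and FTI, and 3086 with ZMPSTE24. On this probe set the prelamin A arrays were lowest and the progerin arrays lay between them and the controls. Its other measured probe sets overlapped the controls: progerin read 2718 and 1436, above control 2 at 2462 and 1406. The ZMPSTE24 array was above control 2 on both as well, while prelamin A with and without FTI stayed below both controls. Its change in prelamin A cells was -0.89 (SE 0.32, limma unadjusted p = 0.0453), short of 2-fold. The isomerases PDIA3, PDIA4 and PDIA6 spanned 9886 to 16866, 829 to 2460 and 7060 to 12099, each with its highest value on control 2, while their other measured probe sets were highest on control 1. On the reported probe sets the lectin chaperones were among the steadiest members: CALR spanned 2204 to 3024 and CANX 10125 to 12417. Some of their other measured probe sets varied more. Another of CALR spanned 1720 to 3196, highest with prelamin A, and another of CANX 679 to 1524, highest with ZMPSTE24.

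MANF, a secreted factor released on ER stress, read 3552 and 2545 on the controls, 2285 with progerin, 2629 with progerin and FTI, 1857 with prelamin A, 2099 with prelamin A and FTI, and 3231 with ZMPSTE24. The ZMPSTE24 array and the array with progerin and FTI lay between the controls. CRELD2, also secreted, spanned 3376 to 5241. Of the degradation factors, EDEM1, which routes misfolded glycoproteins to degradation, read 921 and 913 on the controls and 608 to 796 on the others, SEL1L, the scaffold of the ligase complex, spanned 2726 to 3969, and HERPUD1 read 8835 and 13458 on the controls and 6112 to 8914 on the others. SEC61B, a subunit of the translocon, spanned 10881 to 16560 and was lowest on control 1. Its second probe set was far dimmer and highest on control 1, at 116. The log2 change there was -0.97 with progerin and -0.30 with prelamin A, so its direction depended on the probe set.

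SERPINH1 had the lowest levels relative to control of the called genes. It read 12642 and 20662 on the controls, 7147 with progerin, 7310 with progerin and FTI, 4301 with prelamin A, 3714 with prelamin A and FTI, and 3966 with ZMPSTE24. The arrays fell into 3 tiers, controls, progerin and prelamin A, with no overlap. SERPINH1 fell by 1.18 with progerin (SE 0.43, limma unadjusted p = 0.0463, adjusted p = 0.719) and by 1.91 with prelamin A (SE 0.43, unadjusted p = 0.00878, adjusted p = 0.234), to 26.7% of control in the latter. Against control 1 alone the changes were -0.82 and -1.55, so the call in progerin cells rested on control 2. In prelamin A cells neither FTI nor ZMPSTE24 was accompanied by a higher signal.

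When arrays were pooled into control, lamin (progerin and prelamin A) and treated (the 3 arrays with FTI or ZMPSTE24), 0 members passed an adjusted p under 0.05 in limma, where 0.558% of all genes did for lamin minus control and 1.08% for treated minus control. At an unadjusted p under 0.05, 10 members were lower and 1 higher in lamin arrays (31.2% and 3.12%, against 4.52% and 6.77% of all genes). The 10 were XBP1, HSP90B1, DDIT3, PPP1R15B, TRIB3, HYOU1, SDF2L1, EDEM1, SERPINH1 and CREB3L1, and the higher one was PPP1R15A, which had the smallest p (change 0.88, SE 0.20, unadjusted p = 0.00341, adjusted p = 0.150). In treated arrays 8 were lower and 1 higher (25.0% and 3.12%, against 6.66% and 7.74%). PPP1R15B had the smallest p there (change -0.86, SE 0.19, unadjusted p = 0.00331, adjusted p = 0.116). Without control 2 the 11 members of the lamin arrays became 4 and the 9 of the treated arrays became 5, and without the prelamin A array the former became 4. Without control 1, TRIB3 passed the adjusted threshold in treated arrays, at -4.26.

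The treatments gave no called member. FTI in progerin cells (1.45% of all genes called), FTI in prelamin A cells (2.81%), ZMPSTE24 in prelamin A cells (5.04%) and the difference between the 2 FTI effects (1.84%) each called 0 of 32, and treated minus lamin arrays called 0 at an adjusted p under 0.05 (0% of all genes) and 0 at an unadjusted p under 0.05 (1.99%). After ZMPSTE24 the change of HSPA5 was 0.95 with an interval of -0.04 to 1.94 (95%, limma unadjusted p = 0.0563, adjusted p = 0.996). MANF changed by 0.79 and XBP1 by 0.72, with intervals of -0.36 to 1.94 and -0.27 to 1.70. With FTI in prelamin A cells HSPA5 changed by 0.33 (interval -0.66 to 1.32). In progerin cells the largest change of any member on the reported probe sets was 0.35, of PDIA4, whose second probe set read 947 without and 961 with FTI. Some other measured probe sets differed more between progerin without and with FTI: 288 and 688 for ATF6, 398 and 806 for DNAJC3, and 360 and 675 for HSP90B1. Of the 23 members with prelamin A below both controls, 15 were higher with ZMPSTE24 (65.2%, against 66.1% of all such genes) and 12 with FTI (52.2%, against 62.8%), which is near the background.

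Prelamin A and progerin cells were also set against each other. No member was called, where 7.05% of all genes were, and the smallest unadjusted p was 0.111 in limma, for XBP1 (change -0.74, interval -1.72 to 0.25). On the probe sets reported here the 3 prelamin A arrays lay below both progerin arrays for 8 members (25.0%, against 24.0% of all genes) and above for 6 (18.8%, against 21.4%), again near the background. The 8 included XBP1, ERO1A, SERPINH1, HYOU1 and the isomerases PDIA3, PDIA4 and PDIA6, and the 6 included ATF6, DNAJB9 and DNAJC3. The second probe set of PDIA4 had the reverse order, with prelamin A arrays at 1269, 1192 and 1244 and progerin arrays at 947 and 961. Another probe set of PDIA3 was reversed as well, at 568, 508 and 599 against 401 and 433. For ERO1A, PDIA6, ATF6, DNAJB9 and DNAJC3 the 2 lines overlapped on another measured probe set.

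On the probe sets reported here the members with an ERSE were lower by sign in both lines, 7 of 7 (49.3% and 51.5% of all genes). Their medians were -0.36 in progerin and -0.65 in prelamin A cells. For HSP90B1, CALR and CANX another measured probe set was higher with prelamin A, and for CANX also with progerin, so the sign depended on the probe set. The 22 members with neither ERSE nor ERSE-II had medians of -0.37 and -0.41, and 17 and 16 of them were lower. The 3 with ERSE-II had medians of -0.56 and -0.80. Outside the members 8 tested genes held an ERSE, with medians of -0.13 and -0.14, and 5 of the 8 were lower in each line. No motif was found in the windows of SERPINH1, CREB3L1, DDIT3, TRIB3 or PPP1R15A, which says only that these letters are not there.

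The rest of the pathway was read from further lists. Of 36 tested targets of the PERK and ATF4 branch, many of which make or import amino acids or charge transfer RNAs, 5 fell and 0 rose in progerin cells, where 2.04% and 3.76% of all genes did, and 9 fell and 2 rose in prelamin A cells, where 4.02% and 6.29% did. The medians were -0.81 and -1.04, and all 5 lamin and treated arrays were below both controls for 16 genes (12.3% of all genes). PSAT1, of serine synthesis, read 5514 and 14601 on the controls, 1754 with progerin, 1906 with progerin and FTI, 1527 with prelamin A, 660 with prelamin A and FTI, and 567 with ZMPSTE24. All 5 lay far below the lower control. It fell in both lines, by 2.34 in progerin cells (SE 0.66, limma unadjusted p = 0.0191, adjusted p = 0.577) and at -2.54 in prelamin A cells. CTH, of cysteine synthesis, and MTHFD2 and ALDH1L2, of mitochondrial folate metabolism, fell in progerin cells, at log2 changes of -1.76, -1.68 and -1.66. PHGDH, the first enzyme of serine synthesis, and MTHFD2 fell in prelamin A cells, at -2.67 and -2.15. ADM2, a secreted peptide, was also called there, but it read 106 and 219 on the controls and 13.1 with prelamin A, under the minimum of 100 units set for a measured signal, so the size of its change is uncertain.

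Much of this branch differed between the 2 controls. Of its 36 genes 20 were more than 2-fold higher on control 2 than on control 1, where 4.31% of all genes were, and the median log2 difference of control 1 from control 2 was -1.14. ASNS, asparagine synthetase, read 2058 and 10067 on the 2 controls, and DDIT4, an inhibitor of mTOR signalling, 1486 and 12424; both were chosen after their values were seen. Against control 2 the mean of the 5 arrays had a median difference of -1.66 over the branch, and against control 1 it was -0.45, with 33 and 28 of 36 genes below. For the 32 members the corresponding medians were -0.48 and -0.31, with 27 below either control. In the pooled states 14 genes of the branch were lower in lamin arrays at an unadjusted p under 0.05 (4.52% of all genes), 3 without control 2 and 25 without control 1. In treated arrays the count was 21 (6.66% of all genes), 9 without control 2 and 31 without control 1. Among the members DDIT3 and TRIB3 were more than 2-fold higher on control 2, and DNAJC3 on control 1 (9.38% of members in either direction, against 9.28% of all genes). PPP1R15A and HERPUD1, which ATF4 is also known to induce, were 1.18-fold and 1.52-fold higher on control 2. The second probe set of PPP1R15A read 466 on control 1 and 996 on control 2, so the size of its difference depended on the probe set. Why the controls differed was not tested.

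**Figure D4:**
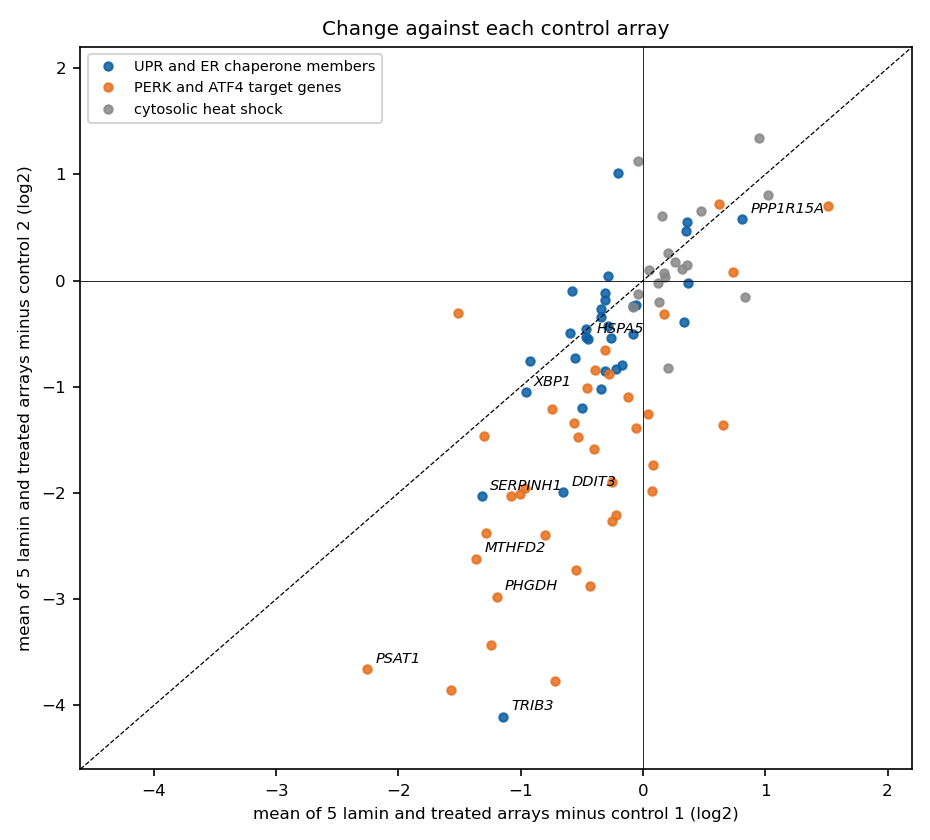
Each point is 1 gene, placed by the mean log2(signal + 16) of the 5 lamin and treated arrays minus control 1 (x axis) and minus control 2 (y axis); on the dashed line both differences are equal. Most PERK and ATF4 targets lie below the line, with medians of -0.45 and -1.66, while the members have medians of -0.31 and -0.48. The genes labelled cytosolic heat shock, which include the mitochondrial HSPD1 and HSPE1, have medians of 0.19 and 0.10.

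Neighbouring steps of the secretory pathway were read in the same way. Among 14 tested genes listed under procollagen modification, not all of them enzymes, 3 fell and 1 rose in progerin cells (2.04% and 3.76% of all genes). In prelamin A cells 4 fell and 1 rose (4.02% and 6.29%), and 10 had all 5 arrays below both controls (12.3%). By sign 12 of the 14 were lower in each line, with medians of -0.68 and -0.71. P3H2, a prolyl 3-hydroxylase, read 304 and 311 on the controls, 44.6 with progerin, 128 with progerin and FTI, 45.8 with prelamin A, 88.7 with prelamin A and FTI, and 116 with ZMPSTE24. It was lowest in the untreated lines and higher, though below control, on the 3 treated arrays. P3H2 fell in both lines (log2 changes of -2.42 and -2.39), and was called higher after FTI in progerin cells (1.25, SE 0.37, adjusted p = 1.00 in limma) and after ZMPSTE24 (1.10, SE 0.37, adjusted p = 0.911). Its untreated values lay under 100 units, so these sizes are uncertain. It passed the adjusted threshold in the pooled lamin arrays (adjusted p = 0.0117 in limma), and 0 genes of the list did so without control 1 or without control 2. P3H1, another 3-hydroxylase, and P3H4, a related ER protein, fell in both lines, at -1.32 and -1.38 with progerin and -1.69 and -1.94 with prelamin A. TMEM38B, an ER cation channel, rose by 1.25 and 1.99 and was called lower after FTI in prelamin A cells, at -1.15 (adjusted p = 1.00 in limma).

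Of 26 tested genes of COPII coats, cargo receptors and KDEL receptors, 1 fell in progerin cells (2.04% of all genes), 2 fell and 1 rose in prelamin A cells (4.02% and 6.29%), and 11 had all 5 arrays below both controls (12.3%). KDELR3, which returns escaped chaperones to the ER, read 18249 and 15469 on the controls and 6048 to 7813 on the other 5. It fell in both lines (-1.31 and -1.47) and passed the adjusted threshold in treated arrays (adjusted p = 0.0397 in limma), which 0 genes of the list did without control 1 or without control 2. Of 42 other ER chaperones, 2 fell and 2 rose in progerin cells and 1 fell and 1 rose in prelamin A cells (of all genes, 2.04% fell and 3.76% rose in the first line and 4.02% and 6.29% in the second). The oxidase ERO1B rose in both, by 1.19 and 1.27, from 58.1 and 56.3 units on the controls to 139 to 169 on the others, which is a low signal, and it passed the adjusted threshold in treated arrays (adjusted p = 0.0292 in limma) but not without control 1 or without control 2. CLGN, calmegin, rose by 1.57 in progerin cells and by 1.86 with ZMPSTE24 in prelamin A cells. FKBP7 and FKBP11, prolyl isomerases, fell in progerin cells, at -1.17 and -1.04, and RCN3, a reticulocalbin, fell in prelamin A cells, at -1.57.

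Of 21 translocon and signal recognition genes 1 fell in progerin cells, SRPRB (-1.06), and 0 in prelamin A cells (2.04% and 4.02% of all genes), while 10 had all 5 arrays below both controls (12.3%) and 18 and 15 were lower by sign. Of 25 N-glycan genes 2 fell in prelamin A cells, the glucosidase MOGS (-1.72) and ALG13 (-1.14), and of 29 degradation genes 1 did, NGLY1 (-1.14). None of 13 eIF2 kinases and subunits was called in either line. Of 15 other sensors and outputs WFS1, an ER membrane glycoprotein, rose in prelamin A cells by 1.24. The 18 genes listed as cytosolic heat shock included the mitochondrial chaperones HSPD1 and HSPE1. Of the 18, 0 fell. HSPB8 rose in both lines (by 1.07 and 1.15) and HSPH1 in prelamin A cells (by 1.38), where 3.76% and 6.29% of all genes rose in the 2 lines. All 5 arrays lay above both controls for 7 of the 18 (11.9% of all genes). Their medians were 0.20 and 0.09, where the ER members had -0.38 and -0.53.

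The arrays were comparable in brightness, with median signals of 64.9 to 77.0, and r between the 2 controls was 0.959 over the tested genes, a description only since genes are not replicates. The 3′ to 5′ ratio of actin, a measure of RNA integrity, was 1.62 on the prelamin A array and 1.50 on the ZMPSTE24 array against 1.24 and 1.06 on the controls. On the array with prelamin A and FTI it was 1.26. The same ratio of GAPDH was 0.861 with prelamin A and 0.892 with ZMPSTE24, against 0.879 and 0.943 on the controls. The part of RNA integrity in the lower prelamin A values was not tested. All 10 fibroblast markers read at least 100 on every array, with sums of 254737 to 318876. Of 7 keratinocyte markers 6 were under 100 on all arrays and KRT10 read 4980 to 10671, highest on control 1, and 4 of 6 endothelial, 2 of 4 immune and 4 of 5 melanocyte markers were under 100 on all arrays. The summed endothelial markers were 317 and 198 on the controls and 378 to 517 on the others, the summed immune markers 247 and 137 against 311 to 652. Of the single markers TEK read 23.5 and 2.19 on the controls and 167 to 344 on the others, and CD14 87.2 and 55.3 against 198 to 575, while PECAM1, CLDN5 and CD3E were highest on control 1. The part of such cells in the results was not tested. In bulk RNA, a change in the share of cells of a kind and a change in RNA per cell cannot be told apart. Of 36 other measured probe sets of 19 members, 28 had the direction of the reported one with prelamin A and 29 with progerin. The probe sets of HSP90B1, PDIA6 and CALR are of the kind that can bind related transcripts, so their levels are less certain.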

How the data were processed

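RNA of 7 fibroblast cultures was hybridized to Affymetrix U133 Plus 2.0 arrays. The deposited table holds linear intensity values, which the authors produced with MAS 5.0 (version as named in their methods). The mean of each array, trimmed by 2% at each end, was 500.07 units, as computed from the table. The study's methods name a lower scaling target, and the reason for the difference is not known. Each group and replicate came from the labels. Of 54675 probe sets, 62 were controls, 41091 had 1 gene symbol, 1801 several and 11721 none. A gene took its 1-gene probe set of highest mean signal and was tested if it reached 100 on at least 1 array (12726 genes). Values were log2(signal + 16), so low genes' changes are understated. Contrasts were fitted with limma 3.58.1 in R 4.3.3 on 6 conditions, where the 2 controls give the 1 residual degree of freedom (prior 3.50) and lone arrays are assumed to vary like the controls, and on 3 pooled states (4 residual degrees, prior 2.60), after being tested on simulated data. The study's S-score test needs probe-level data and was not repeated, and the 2-fold and p under 0.05 that the study names for its gene counts were kept, while its methods filter S-scores at a stricter p. Precision is limited by the number of arrays. All members were named, with up to 4 called genes per further list and comparison. Members and lists were chosen with earlier results of these data known. Motifs were searched on both strands of RefSeq promoter windows. Settings also tried were centring on medians or quantile normalization, a pseudocount of 1 or 64, no filter on low signals, the mean of all probe sets, an intensity trend, the lamin line as a block and leaving out arrays. Protein sequences were not used here.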

Additional observations from a re-analysis of the deposited data

How the results depend on the processing

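Calls rested on few arrays and changed with settings. In progerin cells against control the 1 called member became 0 under quantile normalization, a pseudocount of 1 or no filter, 2 under median centring, and 3 under a pseudocount of 64 or an intensity trend. With 1 control left out no test of either line against control was possible. In prelamin A cells the 5 called became 3 under quantile normalization or the mean of all probe sets, and 4 to 9 exceeded 2-fold, with no test, when 1 control was left out. ZMPSTE24 called 1 with the mean of all probe sets, and treated arrays against control called 0 to 1 when arrays were left out. SERPINH1 in progerin cells lost its call under quantile normalization (-1.15), a pseudocount of 1 (-1.18) and no filter (-1.18). HSPA5 lost it under quantile normalization (-0.95), PPP1R15A under a pseudocount of 64 (0.97) and the mean of all probe sets (0.85), and CREB3L1 under quantile normalization (-1.16), a pseudocount of 1 (-1.17), no filter (-1.16) and the mean of all probe sets (-1.61). XBP1 and SERPINH1 in prelamin A cells kept their calls under every alternative that gave a test, and a change over 2-fold with either control alone. The count of members with all 5 arrays below both controls was 15 under quantile normalization, 17 under median centring, 16 with the mean of all probe sets and 20 to 23 with 1 control; these settings were added after the data were seen. No called change reversed in sign. Set against control 1 and control 2 in turn, the mean of the 5 arrays changed sign for DNAJC3 (-0.21 and 1.02), ERN1 (0.34 and -0.39), EIF2AK3 (-0.29 and 0.04) and SEC61B (0.37 and -0.02). The causes were not tested. Arrays were not paired by replicate number, because the groups compared share only 1. A fit with the lamin line as a block called 0 members in each pooled comparison. Low signals limit what can be read for ERN1, SDF2L1, P3H2, ERO1B and ADM2.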
